A study of Mus musculus and Rattus norvegicus with 6 samples.

Results

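The microRNA miR-7 was followed in retinas of rat and mouse by every row of the 2 count tables whose name, after the species prefix, starts with miR-7a or miR-7b. The rule found 9 names among the 2679 of both tables. The 4 rat names, out of 764, were miR-7a-5p, miR-7a-1-3p, miR-7a-2-3p and miR-7b, which has no arm suffix. The 5 mouse names, out of 1915, were miR-7a-5p, miR-7a-1-3p, miR-7a-2-3p, miR-7b-5p and miR-7b-3p. The libraries came from 9-week-old wild-type Sprague Dawley rats (r1, r2 and r4) and 9-week-old wild-type C57BL/6 mice (m1, m3 and m4), with no treatment named for either. Strain therefore changes with species, and the 2 cannot be told apart. The labels do not say that the 3 samples of a species came from separate animals, so each p-value speaks only of spread among these 6 libraries, and some of it may be technical. The extraction text speaks of rat eyes under mouse samples too.

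MicroRNAs are short RNAs cut from the 5p or the 3p side of a hairpin, and they lower the output of messenger RNAs that pair with their seed, bases 2 to 8. The miR-7 family is conserved between insects and mammals and is known from neurons and from endocrine cells such as those of the pituitary and the pancreatic islets. In Drosophila it takes part in photoreceptor differentiation. In mammalian brain the circular RNA Cdr1as carries many miR-7 sites, and in mouse the long non-coding RNA Cyrano directs the decay of miR-7. Neither RNA was measured here.

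The mature sequences are shown because they define what the names can and cannot tell apart. All were taken from RefSeq for mouse (GRCm38.p6), in which 5 of 5 mouse names were matched. They are written 5′ to 3′ with the seed in capitals. For the rat names no sequence was used.
mmu-miR-7a-5p: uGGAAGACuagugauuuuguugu
mmu-miR-7b-5p: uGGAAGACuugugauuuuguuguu
mmu-miR-7a-1-3p: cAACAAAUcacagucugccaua
mmu-miR-7a-2-3p: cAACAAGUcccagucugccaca
mmu-miR-7b-3p: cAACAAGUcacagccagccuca
The 5p forms share the seed GGAAGAC, which 2 of the 1679 mature mouse names in the sequence table have, namely these 2. Counted from 1 at the 5′ end, miR-7a-5p and miR-7b-5p differ at 1 of 23 positions compared (A10U), and miR-7b-5p is 1 base longer, at 24 against 23 bases. The 3p forms of the miR-7a copies differ at 3 of 22 positions (A7G, A10C and U21C), of which the first lies in the seed. How reads that fit more than 1 name were counted is not given in the sources used here, so the division of reads between miR-7a-5p and miR-7b-5p is uncertain.

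The mouse hairpins are shown because miR-7a-5p is cut from a pair of them while each 3p name belongs to 1. The 5p and 3p mature stretches are in capitals.
Mir7-1: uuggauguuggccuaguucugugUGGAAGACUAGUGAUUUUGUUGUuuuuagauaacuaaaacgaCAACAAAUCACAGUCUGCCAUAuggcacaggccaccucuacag
Mir7-2: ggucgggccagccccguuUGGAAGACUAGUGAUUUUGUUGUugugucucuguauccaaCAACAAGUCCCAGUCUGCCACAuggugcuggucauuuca
Mir7b: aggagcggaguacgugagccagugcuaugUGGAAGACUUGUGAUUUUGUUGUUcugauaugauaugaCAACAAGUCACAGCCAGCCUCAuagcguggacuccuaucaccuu
In the GENCODE annotation of GRCm38, Mir7-1 (chr13:58392779-58392886, minus strand) lies within Hnrnpk, the gene of an RNA-binding protein, on the same strand and in an intron of each of the 12 transcripts that span it. Mir7-2 (chr7:78888277-78888373, plus strand) overlaps no other annotated gene, and the nearest is Aen, 7481 bases away. Mir7b (chr17:56242988-56243098, plus strand) overlaps none either, and a lincRNA, AC026385.1, lies 183 bases away on the same strand.

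Depth was 24169628 to 28198305 counts in the rat libraries and 27843590 to 30514632 in the mouse libraries. Between rat libraries the chi-square per degree of freedom was 4252 for r1 against r2 and 3524 for r1 against r4, but 176 for r2 against r4. For mouse pairs it ran from 65.6 to 78.5, so r1 stood apart and no pair looked like 1 library read again. Names were joined across species where they were equal after the prefix, and rat miR-7b was joined to mouse miR-7b-5p, giving 543 names, of which 399 passed the filter on low counts. With edgeR's quasi-likelihood test and Benjamini-Hochberg adjustment, 102 names passed an adjusted p of 0.05 as higher in rat and 96 as lower. All 4 joined miR-7 names passed the filter. Retina-typical photoreceptor miRNAs (miR-182, miR-183-5p and miR-96-5p) held 36.1% to 48.8% of rat counts and 43.4% to 46.4% of mouse counts.

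Both retinas held miR-7a-5p among their most abundant names, at overlapping levels. The level of miR-7b was lower in every rat library than in any mouse library. In rat, miR-7a-5p had 440671 counts in r1, 385180 in r2 and 426396 in r4. In mouse it had 440635 counts in m1, 467861 in m3 and 436805 in m4. As CPM, meaning counts per 1000000 counts of the library, these are 15121 to 18232 CPM in rat and 15332 to 15825 CPM in mouse, so the groups overlap and r1 is the highest of the 6. The name averaged 1.62% ± 0.177 of all counts in rat and 1.56% ± 0.0251 in mouse (SD, n = 3 each). By mean CPM it was the 14th name of the rat table, between miR-204-5p, at 16535 CPM ± 2031, and miR-30a-5p, at 14539 CPM ± 3405 (SD, n = 3). The rat libraries of these neighbours overlapped with those of miR-7a-5p. In mouse it was 11th, below miR-99a-5p, whose lowest library had 20024 CPM, and above miR-124-3p, at 13641 to 15457 CPM. The mouse libraries of miR-7a-5p and miR-124-3p overlapped, and those of miR-99a-5p lay above them.

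Rat miR-7b had 32699 counts in r1, 35843 in r2 and 41134 in r4. Mouse miR-7b-5p had 82403 counts in m1, 88863 in m3 and 84417 in m4. Every rat library lay below every mouse library, on counts and also as CPM of all counts, at 1353 to 1459 CPM in rat and 2912 to 2995 CPM in mouse. The mean share was 0.141% ± 0.00533 in rat and 0.296% ± 0.00417 in mouse (SD, n = 3 each). In the order of mean CPM the name was 54th in rat, between miR-9a-3p and let-7e-5p, whose rat libraries overlapped with its own. It was 34th in mouse, between miR-21a-5p, at no less than 3316 CPM, and miR-143-3p, at 2607 to 3086 CPM, with overlap between miR-143-3p and miR-7b-5p.

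**Figure D1:**
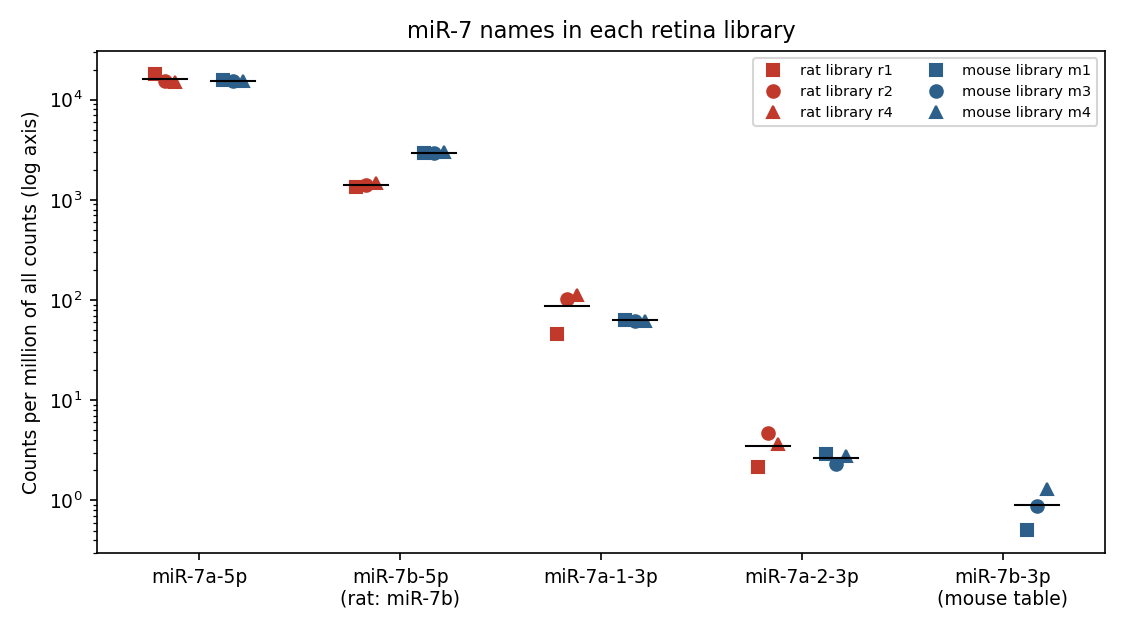
Each miR-7 name in each library as CPM of all counts in that library, on a log axis, with rat in red left of mouse in blue; symbols are libraries and the black line is the mean of 3. The rat miR-7b points (1353 to 1459 CPM) lie below the mouse miR-7b-5p points (2912 to 2995 CPM), while the miR-7a-5p points overlap.

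Between species, miR-7b-5p fell in rat. After TMM scaling on the joined names it averaged 1955 CPM ± 589 in rat and 4506 CPM ± 206 in mouse (SD, n = 3 each), a log2 difference of -1.21 ± 0.22 (SE; adjusted p = 0.00175, edgeR quasi-likelihood test), or 2.31-fold lower in rat. It was the 1 name called among the 4 miR-7 names tested, where 49.6% of all 399 names were called and 24.1% were called lower. It was also the 1 of 4 whose species' libraries did not overlap, where 60.2% of all names did not. In all, 37 of the 399 names had a lower log2 difference, and among the 65 names of at least 1000 CPM in a species 2 did, with 17 of the 65 called lower. The call held with scaling by library totals, with DESeq2 and with any 1 library left out, at log2 differences from -1.496 (without r1) to -0.95 (totals of the joined names). Tested against a fold of at least 2 instead of no change, it was not called (adjusted p = 0.304). The median log2 difference of all names tested was 0.093.

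For miR-7a-5p the test found no difference across all 6 libraries. On the TMM scale r1 had 35496 CPM, r2 16999 and r4 17088, against 24941 CPM in m1, 24119 in m3 and 22115 in m4. Library r1 thus lay above all mouse libraries, and r2 and r4 lay below all of them. The log2 difference was -0.033 ± 0.29 (SE; adjusted p = 0.927, edgeR quasi-likelihood test), with a 95% interval from -0.69 to 0.63. Without r1 it was -0.49 ± 0.061 and was called (adjusted p = 5.04e-05), where 71% of the 414 names then tested were called. On the scale of library totals the sign turned, at 0.18 for totals of the joined names and 0.058 for totals of all names, and neither was called. The TMM factor was 0.805 in r1, against 1.29 in r2 and 1.31 in r4, and 0.861 to 0.965 in mouse. Photoreceptor miRNAs held 48.8% of counts in r1, against 36.1% in r2 and 38.3% in r4, and lens, cornea and epithelium miRNAs held 0.937% in r1, against 0.177% in r2 and 0.114% in r4. Their part in the result was not tested.

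Summing miR-7a-5p and miR-7b-5p removes the effect of reads assigned to one name instead of the other, but not that of reads counted for both or dropped. The sum's log2 difference was -0.18 ± 0.29 (adjusted p = 0.635; 95% interval -0.83 to 0.47), and without r1 it was -0.62 and called (adjusted p = 9.31e-06). With the miR-7 names kept apart, 71% of all names tested were called without r1.

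**Figure D2:**
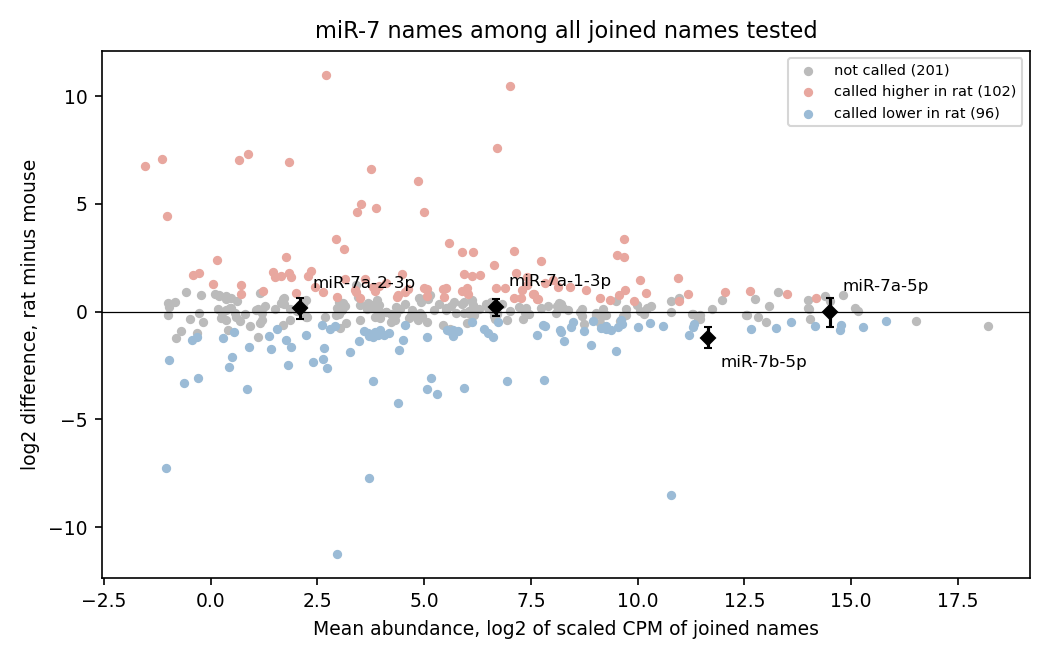
The log2 difference between species (rat minus mouse) of the 399 joined names tested, against their mean abundance on a log2 scale; black diamonds are the miR-7 names with 95% intervals. The interval of miR-7b-5p lies below 0, and those of miR-7a-5p, miR-7a-1-3p and miR-7a-2-3p span it.

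**Figure D3:**
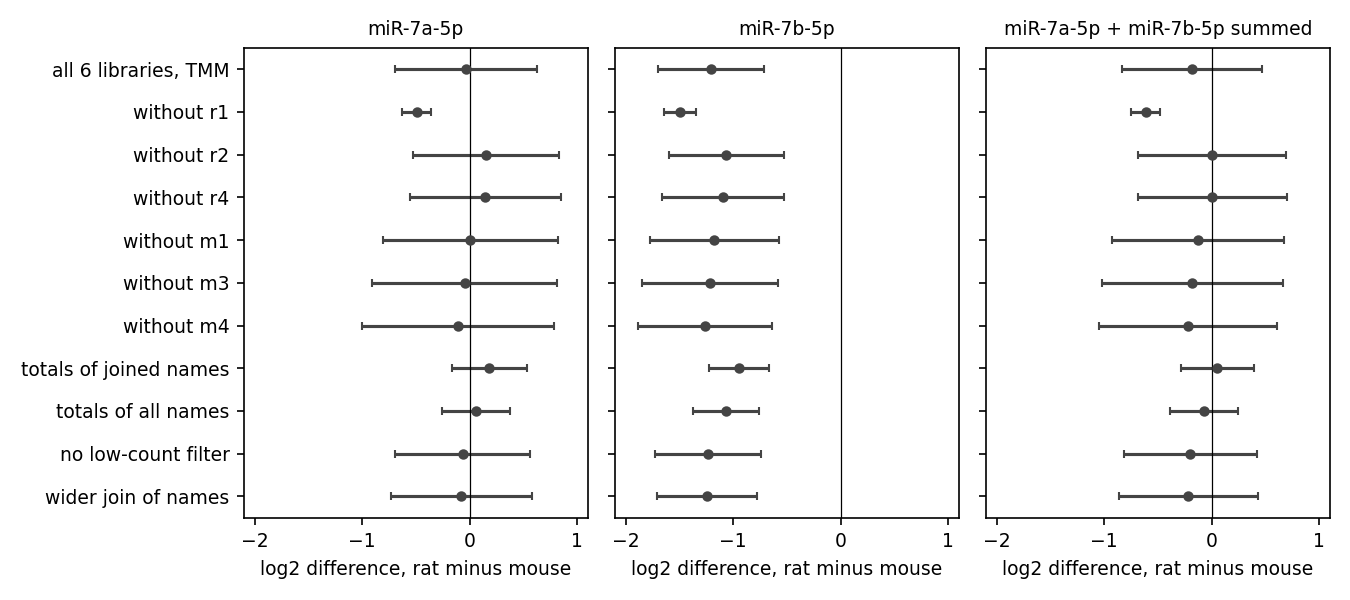
The log2 difference (rat minus mouse) with its 95% interval for miR-7a-5p, miR-7b-5p and their sum, with all 6 libraries, with 1 library left out, and with other scaling, filter and name joins. All 11 values of miR-7b-5p lie below 0, while miR-7a-5p and the sum leave 0 when r1 is left out.

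The balance between the paralogs needs no scaling between libraries. In rat there were 13.5 counts of miR-7a-5p for each count of miR-7b in r1, 10.7 in r2 and 10.4 in r4. In mouse there were 5.35 counts of miR-7a-5p for each count of miR-7b-5p in m1, 5.26 in m3 and 5.17 in m4. The lowest rat ratio was thus above the highest mouse ratio. The mean ratio was 11.5 ± 1.70 in rat and 5.26 ± 0.0865 in mouse (SD, n = 3 each), a 2.18-fold difference, or 1.12 on the log2 scale. An exact two-sided permutation test gave p = 0.1, the smallest that 3 against 3 libraries can give. Put as a share of the 5p counts of both paralogs, miR-7b held 8.07% ± 1.02 in rat and 16.0% ± 0.221 in mouse (SD, n = 3 each). Without r1 the log2 difference of the ratio was 1.004.

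The same ratio was set among the 32 pairs of joined names that differ by the letters a and b, such as let-7a-5p and let-7b-5p, a comparison chosen after the data were examined. With limma, which shares the spread between pairs, the log2 difference for miR-7 was 1.12 ± 0.13 (SE; adjusted p = 0.000717; 95% interval 0.81 to 1.43). Of the 32 pairs 13 were called (40.6%), and 8 had a larger difference in size than miR-7. A shifted balance between paralogs was therefore not particular to miR-7 in these tables. Letters mark related sequences in either table, and whether the rat and mouse letters stand for the same sequences was not tested.

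**Figure D4:**
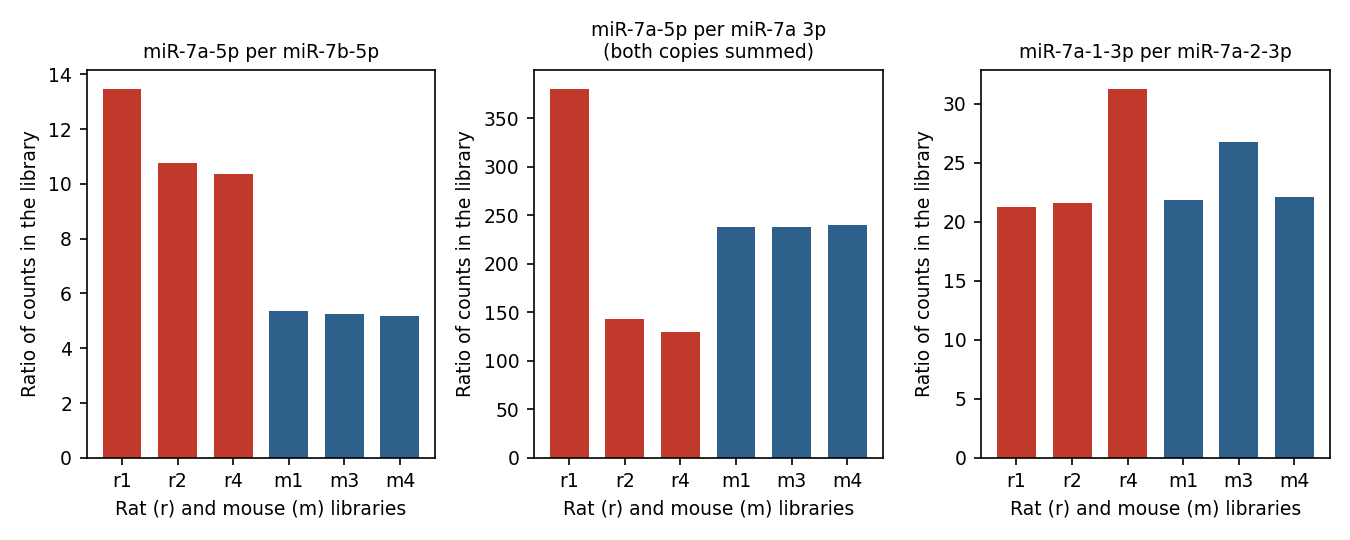
Ratios of counts within each library, rat (red, r1, r2 and r4) left of mouse (blue, m1, m3 and m4), on linear axes from 0. The miR-7a-5p to miR-7b-5p ratio is 10.4 to 13.5 in rat and 5.17 to 5.35 in mouse; the 5p to 3p ratio of miR-7a is 380 in r1 but 129.5 and 143 in the other rat libraries, on either side of mouse; the ratio of the copies overlaps between species.

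The 3p arms, the passenger strands of these hairpins, were a small part of the family. The 3p names together held 0.526% ± 0.246 of all miR-7 counts in rat and 0.356% ± 0.00120 in mouse (SD, n = 3 each), with miR-7b-3p entering in mouse only. Rat miR-7a-1-3p had 1107 counts in r1, 2574 in r2 and 3190 in r4, and mouse miR-7a-1-3p had 1770, 1899 and 1743 counts in m1, m3 and m4. On these counts r1 lay below every mouse library and r2 and r4 lay above, while on the TMM scale r1, at 89.2 CPM, fell inside the mouse range of 88.2 to 100.2 CPM. The log2 difference was 0.21 ± 0.17 (SE; adjusted p = 0.349, edgeR quasi-likelihood test; 95% interval -0.18 to 0.60). Without r1 it was 0.32 ± 0.085 and was called (adjusted p = 0.00712), where 71% of the 414 names then tested were called.

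Copy 2 gave far fewer 3p counts. Rat miR-7a-2-3p had 52 counts in r1, 119 in r2 and 102 in r4, and mouse miR-7a-2-3p had 81, 71 and 79 counts in m1, m3 and m4. These overlapped, and the log2 difference was 0.15 ± 0.22 (adjusted p = 0.611, edgeR quasi-likelihood test; 95% interval -0.35 to 0.65). Mouse miR-7b-3p had 14 counts in m1, 27 in m3 and 37 in m4, or 0.900 CPM ± 0.405 of all counts (SD, n = 3). No rat counterpart of miR-7b-3p entered a comparison, since rat miR-7b names no arm.

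For each count of its 3p arm, miR-7b-5p had 3820 ± 1859 counts in mouse (SD, n = 3), on a small denominator. The miR-7a-5p name, fed by both copies, had 218 ± 141 counts in rat and 238 ± 1.17 in mouse for each count of the summed miR-7a 3p names (SD, n = 3 each). The rat values were 380 in r1, 143 in r2 and 129.5 in r4, while the mouse values were 238 in m1, 237 in m3 and 239.7 in m4. The rat libraries thus differed among themselves by more than either side differed from mouse. For miR-7a-5p over miR-7a-1-3p the log2 difference was -0.32 ± 0.44 (SE; adjusted p = 0.656, limma over 190 arm ratios, of which 24.7% were called). Over miR-7a-2-3p it was -0.26 ± 0.38 (adjusted p = 0.673). Both were called without r1, at -0.81 ± 0.11 (adjusted p = 0.00510) and -0.66 ± 0.17 (adjusted p = 0.0395), where 43.9% of 196 arm ratios were called. In 91 of the 190 arm ratios r1 lay above r2 and r4, and in 49 the rat libraries spanned a wider range than for miR-7a-1-3p.

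The 3p names tell the copies of miR-7a apart where the shared 5p name cannot. Each count of miR-7a-2-3p stood beside 21.3, 21.6 and 31.3 counts of miR-7a-1-3p in r1, r2 and r4, and beside 21.9, 26.7 and 22.1 in m1, m3 and m4. The libraries of the species overlapped, and r4 was the highest of all. The log2 difference of the ratio was 0.054 (exact two-sided permutation test p = 1.0), and it turned to -0.13 without r4. Copy 2 held 4.001% ± 0.783 of the miR-7a 3p counts in rat and 4.11% ± 0.435 in mouse (SD, n = 3 each). In r4 it held 3.10%, with an exact Clopper-Pearson 95% interval from 2.53% to 3.75% that covers counting error only. These are shares of 3p counts, and the share of miR-7a-5p that comes from each hairpin was not measured.

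Some joined names moved across the libraries much like the miR-7 names. Over the 6 libraries, on log2 scaled CPM and among 131 names of at least 100 CPM in both species, miR-7a-5p was closest to miR-708-3p (Pearson r = 0.982), miR-30c-2-3p (0.972), miR-340-3p (0.9496), miR-30a-3p (0.922) and miR-760-3p (0.910). In all 5, as in miR-7a-5p, r1 was the highest library and r2 and r4 were the lowest. For miR-7b-5p the closest were miR-1843b-5p (r = 0.993), miR-541-5p (0.991), miR-149-5p (0.991), miR-370-3p (0.989) and miR-212-5p (0.989). All 5 were called lower in rat, where 24.1% of all names were. In all 5 every rat library lay below every mouse library, where the species' libraries did not overlap in 60.2% of all names. The names were chosen for likeness over these same libraries, so the patterns they share with the miR-7 names follow from the choice. The points share the libraries and the scaling, so the r values describe likeness and carry no p.

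Neuronal miRNAs were counted beside miR-7. Of 11 on the list 9 were joined and tested, 0 rose, 4 fell and 5 were not called, where 25.6% of all names rose and 24.1% fell. The median log2 difference of the list was -0.52, against 0.093 for all names. As a summed share of all counts the 11 names were above every mouse library in r2 and r4 and below in r1, at 7.73% in r1, 10.9% in r2 and 10.997% in r4, against 8.44% to 8.80% in mouse, with the unjoined miR-9a-5p and miR-9-5p as the largest part. The brain miRNA miR-124-3p averaged, on the TMM scale of the joined names, 13907 CPM ± 1455 in rat and 22426 CPM ± 1636 in mouse (SD, n = 3 each; log2 difference -0.69 ± 0.17, adjusted p = 0.00780, edgeR quasi-likelihood test). That call was lost with library totals (-0.33, adjusted p = 0.321). The others that fell were miR-128-3p (-1.07 ± 0.18), the activity-regulated miR-212-5p (-0.94 ± 0.15) and miR-149-5p (-0.85 ± 0.16). The other tested members had log2 differences from -0.52 (miR-132-3p, called in 4 of the alternatives) to 0.73 (miR-129-5p), with miR-138-5p, miR-153-3p and miR-137-3p between. Library r1 held 45126 CPM of miR-129-5p on the TMM scale, against 17562 and 18141 CPM in r2 and r4. Without r1 its log2 difference was 0.12 and not called (adjusted p = 0.0862), while it was called with library totals and without r2. Without r1 miR-137-3p was called higher, at 0.53 (adjusted p = 0.0165), where 152 of the 414 names then tested were called higher. The differently named pairs were not joined: miR-9a-5p stood at 66314 CPM ± 18579 of all counts in rat, with miR-9-5p at 57084 CPM ± 832 in mouse. Likewise, miR-218a-5p stood at 1554 CPM ± 68.2 in rat, with miR-218-5p at 481 CPM ± 39.5 in mouse.

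Of 7 miRNAs listed as neuroendocrine, 5 were tested, 3 rose, 0 fell and 2 were not called, where 25.6% of all names rose and 24.1% fell. The median log2 difference was 0.89, against 0.093 for all names. The summed share of the 7 names overlapped between species, at 0.207% in r1, 0.399% in r2 and 0.353% in r4, against 0.233% to 0.251% in mouse. Library r1 lay below every mouse library. The largest part of the share was miR-29a-3p in every library but r1, where it was miR-375-3p. On the TMM scale miR-29a-3p had 1829 CPM in r1, 2952 in r2 and 2704 in r4, against 2927 to 3372 CPM in mouse. Islet miR-375-3p had, on the same scale, 2098, 1442 and 1205 CPM in r1, r2 and r4 and 560, 541 and 591 CPM in m1, m3 and m4, with no overlap. Its log2 difference was 1.49 ± 0.21 (adjusted p = 0.000554, edgeR quasi-likelihood test), opposite in sign to that of miR-7b-5p. The epithelial miR-200a-3p (1.497 ± 0.28) and miR-200c-3p (0.89 ± 0.29) rose too, the second with its call lost without r4, m1 or m3, with totals of all names and with a wider join of names. The differences of miR-200b-3p (0.75 ± 0.37) and miR-29a-3p (-0.33 ± 0.20) were not called. Without m4 miR-200b-3p was called higher (1.26). Without r1 miR-29a-3p was called lower (-0.16), where 71% of all names then tested were called. In the main fit neither miR-141-3p nor the unjoined miR-429 was tested. The first had 6, 14 and 19 counts in the rat libraries and 4, 1 and 1 in the mouse libraries. Where the filter on low counts was dropped, miR-141-3p was called higher (adjusted p = 0.00655, edgeR quasi-likelihood test). It was also called higher without r1 (2.63), without m1 (3.50) and without m3 (2.18). With the wider join of names miR-429-3p was tested and called higher, at 1.60 (adjusted p = 0.0184, same test). The partner miR-671, which directs the cutting of Cdr1as, was listed in rat without an arm, at 2191, 1608 and 1794 counts. Which arm these rat counts come from is not given, so they cannot be taken as counts of the arm that acts on Cdr1as. In mouse miR-671-3p had 1659, 1858 and 1796 counts and miR-671-5p had 223, 235 and 245. These names were not joined.

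The summed shares of markers of other tissue were not tested between species. Each listed name was found, and none was at 0 in all libraries of a species. Pigment epithelium miRNAs (2 names) held 2.45% to 3.08% of rat counts and 1.38% to 1.61% of mouse counts, and vascular ones (3 names) held 0.751% to 0.795% and 0.418% to 0.5005%. Neither of these ranges overlapped between species. Both pigment epithelium names were called higher in rat, at log2 differences of 0.64 (miR-204-5p, call lost without m1, m3 or m4) and 0.81 (miR-211-5p). Of the tested vascular names, miR-143-3p was called higher (0.94, call lost without m1, m3 or m4) and miR-126a-3p was not called (-0.12). Of all names tested, 25.6% were called higher. Red blood cell miRNAs (3 names) held 0.0162% to 0.0295% in rat and 0.0104% to 0.0110% in mouse, of which most was the unjoined miR-486 in rat and miR-486a-5p in mouse. Their 1 tested name, miR-144-3p, had a log2 difference of -1.01 that was not called, though without r2 it was called lower (-2.25). Muscle miRNAs (4 names) held 0.00446% to 0.00672% in rat and 0.0642% to 0.0883% in mouse. Much of that gap lay in names that were not joined, miR-1-3p with 910, 558 and 397 counts in rat and miR-1a-3p with 23902, 23497 and 17541 counts in mouse. Of the tested muscle names, miR-133a-3p fell (-1.10, call lost with library totals and without m1). Not called were miR-133b-3p (-0.90, called lower with the wider join, without r1 and without m4) and miR-206-3p (0.58, called with library totals and without r4). Lens, cornea and epithelium miRNAs (2 names) held 0.114% to 0.937% in rat and 0.0311% to 0.125% in mouse, and leukocyte and microglia miRNAs (3 names) held 0.000608% to 0.00124% and 0.000603% to 0.000839%. Both of these ranges overlapped between species. Their part in the miR-7 values was not tested. In whole retina, fewer cells that make a miRNA and less of it per cell cannot be told apart.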

How the data were processed

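Retinas were dissected, small RNA was isolated with a miRNeasy kit and sequenced on a HiSeq-2500 (50 bp, single-end), per the labels' protocols. The authors deposited 1 table of raw counts per species, by mature miRNA name. The sources used here do not give the aligner, the annotation release or the treatment of multiply matching reads. Columns are numbered unlike the labels' samples and were assigned to species only.

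The 543 joined names were tested in R 4.3.3 by edgeR 4.0.16: low counts were removed with filterByExpr, TMM used the totals of the joined names, species was the only term of the quasi-likelihood F test, and p-values were Benjamini-Hochberg adjusted over all 399. Arm ratios, log2((5p + 0.5)/(3p + 0.5)) with both arms summing to at least 50 counts in every library, and pair ratios, of names with a mean of at least 50 counts, were tested with limma 3.58.1. DESeq2 1.42.0 was an alternative. Single ratios had exact permutation tests. The count and arm tests were also run on simulated data, drawn with the means and spread of the real data. Names were drawn independently, and counts without TMM factors, so a shift of r1 across many names was not simulated. Named were the miR-7 names, list members, rank neighbours and the 5 names most alike. Members and lists were chosen with earlier results of these data known. Intervals of shares cover counting error only, since PCR copies are not independent molecules.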

Additional observations from a re-analysis of the deposited data

How the results depend on the processing

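The fall of miR-7b-5p kept its direction and its call with other scaling, DESeq2, no filter, the wider join and 1 library left out (-1.496 to -1.07 on the log2 scale in the last), and lost the call when tested against a fold of 2; with exact names only it is not joined. The log2 difference of miR-7a-5p, -0.033 and not called with TMM, was 0.18 with totals of the joined names and 0.058 with totals of all names. It ran from -0.49 (without r1) to 0.16 with 1 library left out. The summed 5p difference turned to 0.054 with totals of the joined names and ran from -0.62 to 0.0065 with 1 library left out. In those fits miR-7a-1-3p ran from 0.090 to 0.32 and miR-7a-2-3p from 0.029 to 0.24. The arm ratios ran from -0.81 to -0.027 (copy 1) and from -0.66 to 0.029 (copy 2), the ratio of the copies from -0.13 to 0.15, and the paralog ratio from 1.004 to 1.19; limma over all pairs gave 1.12 and a call. Calls over all names were 129 higher and 44 lower with totals of the joined names and 105 and 45 with totals of all names, which moved the median of all names to 0.44 and 0.32. They were 40 and 30 against a fold of 2, and 77 to 152 higher and 74 to 142 lower with 1 library left out. With either total 1 neuronal name was called higher, and with 1 library left out 0 to 1 were, with 4 to 5 lower. In those fits 2 to 5 (5 without m4) neuroendocrine names were higher and 0 to 1 lower (1 without r1). All miR-7 names held 1.77% of all counts in rat and 1.86% in mouse, but 2.65% and 2.55% of the counts on joined names, so the order of the species turned with the denominator. The cause of these changes was not tested. Depth limits miR-7a-2-3p and miR-7b-3p, at 14 to 119 counts per library. No paired analysis was possible because the groups are different species, whose samples no label pairs, and the columns carry none of the labels' replicate numbers.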
